A study of Mus musculus with 6 samples.

Results

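The genes described here encode the proteins that make small RNAs and carry out silencing by them in R1 mouse embryonic stem cells, and the mRNA decay enzymes to which that silencing leads. They were given as a list of 34 genes, and each was represented by its brightest probe set, the one with the highest mean over all arrays. A probe set of its own was found for 33 of the 34, out of 18193 genes named on the array; Cnot1, the scaffold of the CCR4-NOT deadenylase, had only 2 probe sets, both annotated to a second gene as well, and was not analysed here. RNA was measured on 6 Affymetrix Mouse Genome 430 2.0 arrays, 3 from cells transduced with a lentivirus carrying shRNA1 against KIAA1718 and 3 from cells transduced with a lentivirus carrying an shRNA against luciferase. KIAA1718 is the histone demethylase encoded by Kdm7a. Both groups were sorted for GFP and both carry an shRNA, so a foreign hairpin was introduced on both sides of the comparison. How far it was expressed and processed was not measured, and no array of cells without an shRNA was analysed here. Each group rests on 1 hairpin sequence, and the labels do not state how the 3 samples of a group were obtained. If they share a culture, the spread behind every p-value here is technical.

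MicroRNAs are transcribed as long primary transcripts, cut in the nucleus to hairpins by Drosha with its partner Dgcr8, exported by exportin 5 with Ran, and cut again in the cytoplasm by Dicer1. One strand is loaded into an Argonaute protein, which pairs with target mRNAs and recruits a GW182 protein (Tnrc6a, Tnrc6b or Tnrc6c), and through it the deadenylases PAN2-PAN3 and CCR4-NOT; the shortened mRNA is then decapped and degraded from its 5′ end. Lentiviral shRNAs enter the same route as primary transcripts or hairpins, and mouse embryonic stem cells without Dgcr8 or Dicer1 grow slowly and differentiate poorly.

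Several of these genes also hold microRNA genes, whose products pass through the machinery that the host genes encode. In the RefSeq table of GRCm38.p6, 5 of the 33 genes (Dgcr8, Ddx5, Xpo5, Srrt and Tnrc6b) had 6 microRNA genes within their bounds, with 11 mature microRNAs, all on the strand of the host. Dgcr8 holds the 2 of them that are shown, because hairpins in its own mRNA are a known substrate of Drosha, whose cut lowers the Dgcr8 message. The mature sequences, from RefSeq, lie on the minus strand of chromosome 16, at chr16:18284288-18284310, chr16:18284248-18284268, chr16:18284602-18284623 and chr16:18284562-18284583 in the order given, with the seed, bases 2 to 8, in capitals.
mmu-miR-1306-5p: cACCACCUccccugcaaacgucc
mmu-miR-1306-3p: aCGUUGGCucugguggugaug
mmu-miR-3618-5p: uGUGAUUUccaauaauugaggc
mmu-miR-3618-3p: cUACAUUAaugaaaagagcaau
The 4 seeds differ from each other, and each was found in 1 of the 1738 mature mouse microRNAs of the table. Mature microRNAs were not measured on these arrays; the values that follow are for the mRNAs of the machinery.

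None of the 33 genes passed the threshold between KIAA1718 shRNA1 and luciferase shRNA cells (limma, Benjamini-Hochberg adjusted p under 0.05 over all tested probe sets), against 4.80% of the 12741 tested genes, 2.64% higher and 2.17% lower. At an unadjusted p under 0.05 the count was 5 of 33, or 15.2%, with 4 higher and 1 lower, against 22.0% of all genes, 11.2% higher and 10.8% lower. All 33 were bright enough to be tested. When the fit was blocked on replicate number, 1 of the 33 passed, Dcp2 (adjusted p = 0.0348), against 7.90% of all genes. Differences ran from -0.36 to 0.56 on the scale of log2(signal + 16), with 20 above 0 and 13 below, where 50.0% of all genes were above 0. Their median was 0.05 and their median size 0.12; over all genes the median was 0.000146 and the median size 0.148. Only Dcp2 reached a size of 0.5, which 5.71% of all genes reached, and none reached 1, which 0.510% did. For every one of the 33 the 95% interval of the difference lay within -1 and 1, as it did for 97.4% of all genes, and for 25 it lay within -0.5 and 0.5 (75.8%, against 62.4%). The groups did not overlap for 11 genes, 8 of them higher and 3 lower (33.3%, against 27.9% of all genes, 14.5% higher and 13.4% lower).

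**Figure D1:**
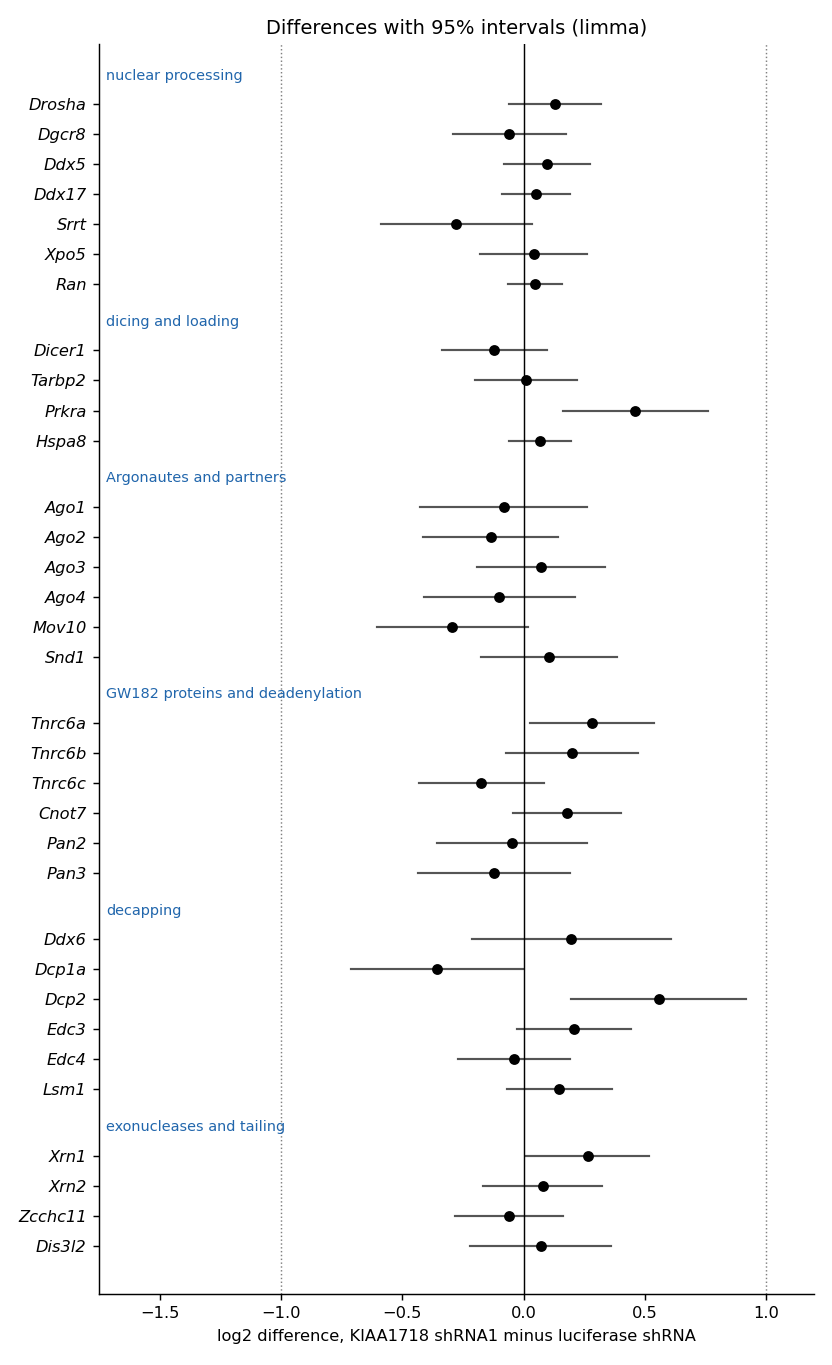
Points give the log2 difference, KIAA1718 shRNA1 minus luciferase shRNA, for the brightest probe set of each of 33 genes, and bars its 95% interval from limma (n = 3 arrays per group); dotted lines mark -1 and 1. All bars end inside the dotted lines, and Dcp2 at 0.56 and Prkra at 0.46 lie furthest from 0.

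In the text, signals are the deposited intensities after quantile normalization between arrays, in arbitrary units, listed by replicate number 1, 2 and 3; probe sets bind with different strength, so signals of different genes are not compared. Group means of the 33 genes ran from 6.66 to 4475 in KIAA1718 shRNA1 cells and from 8.09 to 4265 in luciferase shRNA cells. Where the medians of the deposited arrays were 9.59 to 13.3, the 12 embryonic stem cell markers all had normalized signals of 180 or more on every array. This bears out the labelled cell type. In luciferase shRNA cells the dimmest was Lin28a, at a mean of 448, against 430.2 in KIAA1718 shRNA1 cells. In KIAA1718 shRNA1 cells it was Esrrb, at 258, against 581 in luciferase shRNA cells. The target, Kdm7a, averaged 31.6 ± 9.63 in KIAA1718 shRNA1 cells and 38.0 ± 1.10 in luciferase shRNA cells (SD, n = 3), and its difference of -0.20 did not pass (adjusted p = 0.534), so it gives no check of the labels. The summed signal of the 12 stem cell markers was 12667 to 13667 in KIAA1718 shRNA1 cells and 14909.9 to 15389 in luciferase shRNA cells. Past the threshold 3 markers were lower, Esrrb (-1.16), Klf4 (-0.91) and Utf1 (-0.44), and 4 when blocked on replicate number, with Nanog added (-0.42, adjusted p = 0.0488 when blocked). Klf2, Dppa4, Zfp42 and Pou5f1 lay at -0.30 to -0.15 and did not pass. Sox2, Dppa5a and Lin28a differed by only -0.08 to -0.06. Tdgf1 alone was higher, by 0.12 without overlap of the groups (adjusted p = 0.316). The summed signal of 11 fibroblast markers was 1101 to 1601 in KIAA1718 shRNA1 cells and 1329 to 2745 in luciferase shRNA cells. The dimmest of them, Lum, averaged only 9.92 in KIAA1718 shRNA1 cells and 18.8 in luciferase shRNA cells. None of the 11 passed without the block, but 7 passed with it, all of them lower in KIAA1718 shRNA1 cells. Among these, Col1a1, a collagen gene, differed by -1.53 (adjusted p = 0.0713, and 0.0173 when blocked) and Thy1, a surface protein gene, by -0.62 (adjusted p = 0.0575, and 0.0426 when blocked). With the mean of these markers as a covariate none of the 33 genes passed, as none had without it. Only 0.589% of the 12741 tested genes passed in that fit, so the count says little about the 33. Beyond that fit, the part of either marker list in the values was not tested. In such bulk samples fewer cells of a type and less RNA per cell cannot be told apart. The mean of the 33 genes differed little between arrays, at 7.92, 7.92 and 7.97 (log2) on KIAA1718 shRNA1 replicates 1, 2 and 3, and at 7.91, 7.91 and 7.86 on luciferase shRNA replicates 1, 2 and 3.

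**Figure D2:**
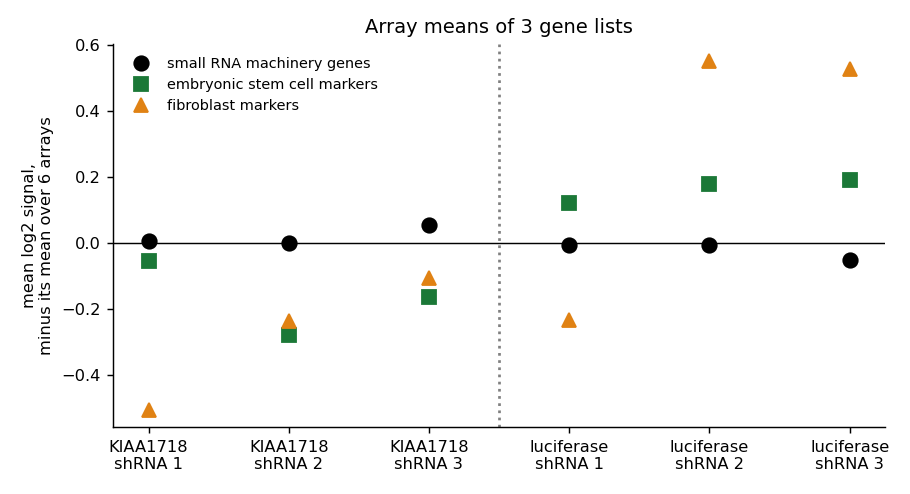
Each point is the mean log2(signal + 16) of a gene list on 1 array, less the mean of that list over all 6 arrays; the lists are the 33 small RNA machinery genes, 12 embryonic stem cell markers and 11 fibroblast markers. The machinery genes stay near 0 on all 6 arrays. The mean of the stem cell markers, though not each marker, is lower on the 3 KIAA1718 shRNA1 arrays, and that of the fibroblast markers is highest on luciferase shRNA replicates 2 and 3.

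The 7 genes of nuclear processing and export differed by -0.28 to 0.13, and none reached an unadjusted p under 0.05. Drosha, the nuclease that frees the hairpin from the primary transcript, had signals of 1208, 1365 and 1219 in KIAA1718 shRNA1 cells and 1254, 1030.4 and 1187 in luciferase shRNA cells. The groups overlapped, and the difference was 0.13 ± 0.09 (SE, adjusted p = 0.472). A further Drosha probe set near the floor of the arrays went the other way, at 6.95 ± 4.84 in KIAA1718 shRNA1 cells and 13.9 ± 2.33 in luciferase shRNA cells (SD, n = 3; log2 difference -0.40, adjusted p = 0.212). For Dgcr8, the RNA-binding partner of Drosha and host of the microRNAs shown above, signals were 240.0, 220.1 and 244 in KIAA1718 shRNA1 cells and 246, 266 and 224 in luciferase shRNA cells. These overlapped too, with a difference of -0.06 ± 0.11 (SE) and an interval of -0.29 to 0.18. Its other 2 tested probe sets differed by 0.11 (adjusted p = 0.687) and 0.30 (adjusted p = 0.294).

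Exportin 5, which carries hairpins to the cytoplasm, gave 226, 229 and 232 for Xpo5 in KIAA1718 shRNA1 cells and 221, 236 and 210.3 in luciferase shRNA cells, a difference of 0.04 with an interval of -0.18 to 0.26. Its GTPase partner Ran averaged 3263 ± 95.3 in KIAA1718 shRNA1 cells and 3157 ± 95.4 in luciferase shRNA cells (SD, n = 3), and all 6 of its tested probe sets lay above 0, at 0.05 to 0.30, with none past the threshold. The helicases Ddx5 and Ddx17, which assist Drosha on some primary transcripts, differed by 0.10 and 0.05 at their brightest probe sets. For each of them 1 further probe set had the opposite sign and groups that did not overlap. That of Ddx5 averaged 774 ± 61.3 in KIAA1718 shRNA1 cells and 894 ± 40.8 in luciferase shRNA cells (SD, n = 3; log2 difference -0.21, adjusted p = 0.212). That of Ddx17 averaged 689 ± 97.0 in KIAA1718 shRNA1 cells and 809.8 ± 27.7 in luciferase shRNA cells (SD, n = 3; -0.24, adjusted p = 0.240). Srrt, which links the nuclear cap-binding complex to primary microRNA processing, had signals of 301, 255 and 383 in KIAA1718 shRNA1 cells and 363, 432 and 342 in luciferase shRNA cells. Of its KIAA1718 shRNA1 arrays only replicate 3 reached the range of the controls; the difference was -0.28 ± 0.14 (SE, adjusted p = 0.323), and -0.43 to -0.15 with 1 array left out.

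At the dicing step the nuclease gene differed little, and Prkra, the gene of a partner, had the second largest difference of the 33. Dicer1 gave 199, 204 and 203 in KIAA1718 shRNA1 cells and 225, 219 and 219 in luciferase shRNA cells. Every KIAA1718 shRNA1 array was below every control array, and the SD within groups was 0.0209 (log2). The difference was only -0.12 ± 0.10 (SE, adjusted p = 0.563). That SE is limma's, drawn toward the spread of probe sets of similar signal, and is wider than these arrays alone would give. The other Dicer1 probe set lay on the opposite side at 0.23 (adjusted p = 0.41).

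Dicer1 works with either of 2 related double-stranded RNA-binding proteins, encoded by Tarbp2 and by Prkra, whose product PACT is also an activator of the kinase PKR. Prkra had signals of 113, 126 and 92.3 in KIAA1718 shRNA1 cells and 84.7, 67.7 and 74.1 in luciferase shRNA cells. The groups did not overlap, and the difference of 0.46 ± 0.14 (SE, interval 0.16 to 0.76) had an adjusted p of 0.0909. It was above 0 in all 16 alternatives, at 0.28 to 0.57, and passed in none of them; the adjusted p ran from 0.0622 to 0.579. The lowest value, 0.28, came with the fibroblast marker mean as a covariate. Prkra rests on 1 probe set, since its other one was too dim to be tested. Tarbp2, by contrast, gave 256, 273 and 264 in KIAA1718 shRNA1 cells and 265, 253 and 269.5 in luciferase shRNA cells, a difference of 0.01 with an interval of -0.20 to 0.22; whether the 2 partners differ from each other was not tested. The chaperone gene Hspa8, whose product takes part in opening Argonaute for loading, averaged 4475 ± 289.7 in KIAA1718 shRNA1 cells and 4265 ± 204 in luciferase shRNA cells (SD, n = 3), and its 4 probe sets lay between -0.25 and 0.07.

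**Figure D3:**
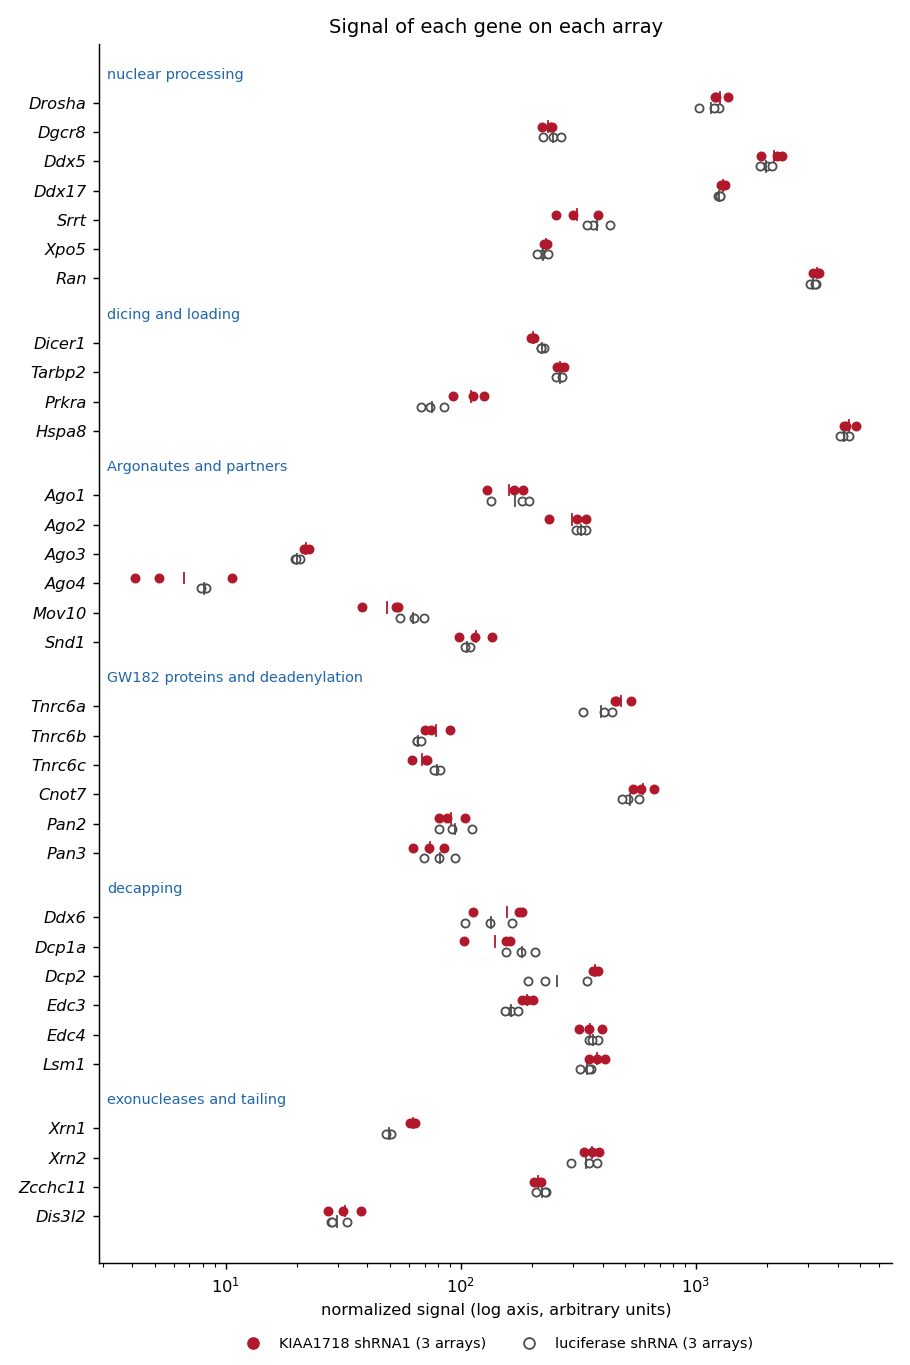
Normalized signal of the brightest probe set of each gene on a log axis, with 1 point per array, filled for KIAA1718 shRNA1 above and open for luciferase shRNA below, and short vertical lines at the group means. The groups lie side by side for most genes; all KIAA1718 shRNA1 arrays lie above every control array for 8 genes (Ddx17, Prkra, Ago3, Tnrc6a, Tnrc6b, Dcp2, Edc3 and Xrn1) and below every one for 3 (Dicer1, Mov10 and Tnrc6c).

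The 4 Argonaute genes, of which only Ago2 encodes a protein that cuts its target, had no difference past the threshold; only for Ago3 did the groups not overlap. Ago2 had signals of 311, 238 and 339.8 in KIAA1718 shRNA1 cells and 307, 342 and 323 in luciferase shRNA cells, a difference of -0.14 ± 0.13 (SE, interval -0.42 to 0.14). Ago1 had 183, 129 and 168 in KIAA1718 shRNA1 cells and 182, 194 and 134 in luciferase shRNA cells, a difference of -0.08 with an interval of -0.43 to 0.26. In both the lowest signal was on KIAA1718 shRNA1 replicate 2, and without that array the differences were 0.01 for Ago2 and 0.05 for Ago1. Ago3 was dim and even, at 21.7, 21.5 and 22.6 in KIAA1718 shRNA1 cells and 20.7, 19.7 and 19.9 in luciferase shRNA cells; the groups did not overlap, yet the difference was 0.07 (adjusted p = 0.805). Ago4 was the dimmest of the 33 genes by its brightest probe set, at 5.20, 10.6 and 4.12 in KIAA1718 shRNA1 cells and 8.19, 8.23 and 7.85 in luciferase shRNA cells. At such signals the added 16 shrinks any difference, so the value of -0.10 says little about Ago4. Ago1, Ago3 and Ago4 are neighbours on chromosome 4, and their intervals all include 0.

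Mov10, an RNA helicase found with Argonaute and also an antagonist of retroviruses and retrotransposons, had signals of 54.0, 38.0 and 53.2 in KIAA1718 shRNA1 cells and 62.9, 55.2 and 69.7 in luciferase shRNA cells. All 3 KIAA1718 shRNA1 arrays were below the controls, at a difference of -0.29 ± 0.14 (SE, adjusted p = 0.298). Replicate 2 was again the lowest, and without it the difference was -0.17. Snd1, which encodes a Tudor and staphylococcal nuclease domain protein that cuts edited double-stranded RNA, gave the 1 call among all 91 tested probe sets of the 33 genes, and not at its brightest one. The share called among all 27022 tested probe sets was not counted, so this count has no background beside it. By gene, at the brightest probe set, 4.80% of all genes passed. The brightest Snd1 probe set had 135, 98.3 and 115 in KIAA1718 shRNA1 cells and 105, 109 and 104 in luciferase shRNA cells, a difference of 0.10 (adjusted p = 0.721). The probe set that passed had signals of 3.62, 3.94 and 3.44 in KIAA1718 shRNA1 cells and 14.3, 11.7 and 14.8 in luciferase shRNA cells, a difference of -0.59 ± 0.12 (SE, adjusted p = 0.0262). The 2 probe sets therefore disagree, and the call lies at signals under 16.

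The 3 GW182 genes, whose products bridge Argonaute to the deadenylases, had differences of both signs at their brightest probe sets, and none passed. Tnrc6a had signals of 528, 456 and 451 in KIAA1718 shRNA1 cells and 441, 406 and 329.7 in luciferase shRNA cells, with no overlap and a difference of 0.28 ± 0.12 (SE, interval 0.02 to 0.54, adjusted p = 0.221). Of its 9 tested probe sets 8 lay above 0. With the fibroblast marker mean as a covariate the difference was 0.07. Tnrc6b had 70.5, 74.9 and 90.2 in KIAA1718 shRNA1 cells and 65.1, 64.9 and 67.8 in luciferase shRNA cells, a difference of 0.20 (adjusted p = 0.425). Tnrc6c lay on the other side, at 70.8, 71.6 and 61.7 in KIAA1718 shRNA1 cells and 78.0, 81.3 and 76.9 in luciferase shRNA cells, a difference of -0.18 (adjusted p = 0.470). For Tnrc6b and Tnrc6c further probe sets had both signs.

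Among the deadenylases, Cnot7, a catalytic subunit of CCR4-NOT, averaged 595 ± 63.8 in KIAA1718 shRNA1 cells and 523 ± 43.8 in luciferase shRNA cells (SD, n = 3), a difference of 0.18 (adjusted p = 0.377) that its other 2 probe sets, at -0.17 and -0.19, did not share. Pan2, the catalytic subunit of the other deadenylase, and Pan3, its partner, differed by -0.05 and -0.12, with intervals of -0.36 to 0.26 and -0.43 to 0.19.

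Decapping held the widest spread of values, with the largest difference of the 33 genes and the lowest. Dcp2, the enzyme that removes the cap, had signals of 365, 371 and 382 in KIAA1718 shRNA1 cells and 229, 344 and 193 in luciferase shRNA cells. The KIAA1718 shRNA1 arrays were nearly equal and above all controls, while the controls spread widely, with replicate 2 close to the KIAA1718 shRNA1 level. The difference was 0.56 ± 0.16 (SE, interval 0.20 to 0.92) with an adjusted p of 0.0887. Blocked on replicate number, the same difference passed (adjusted p = 0.0348), as did 7.90% of all genes, 4.07% higher and 3.82% lower; none of the other 32 genes did. It also passed without luciferase shRNA replicate 2, at 0.78, and on the unnormalized values, at 0.69, and ran from 0.39 to 0.78 with 1 array left out. The second Dcp2 probe set lay on the other side of 0, at 27.9 ± 4.60 in KIAA1718 shRNA1 cells and 36.9 ± 3.85 in luciferase shRNA cells (SD, n = 3; log2 difference -0.27, adjusted p = 0.300), and the mean of both gave 0.14, with an adjusted p of 0.544.

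Dcp1a, which activates Dcp2, had signals of 161, 103 and 155 in KIAA1718 shRNA1 cells and 207, 156 and 181 in luciferase shRNA cells, a difference of -0.36 ± 0.16 (SE, adjusted p = 0.265). All 3 of its tested probe sets were below 0, at -0.42 to -0.30, each at an unadjusted p under 0.05 and none past the threshold, and without KIAA1718 shRNA1 replicate 2 the brightest gave -0.17. Ddx6, the helicase that joins CCR4-NOT to decapping, had 112, 182 and 177 in KIAA1718 shRNA1 cells and 104, 165 and 133 in luciferase shRNA cells. In both groups the array numbered 1 was the lowest, and the difference of 0.20 ± 0.19 (SE) had the widest interval of the 33, -0.21 to 0.61. A second Ddx6 probe set read 218, 123 and 146 in KIAA1718 shRNA1 cells and 143, 66.2 and 162 in luciferase shRNA cells, with KIAA1718 shRNA1 replicate 1 now the highest. The 3 tested probe sets differed by 0.20 to 0.46 and none passed. Unlike Prkra and Tnrc6a, these decapping genes differed more with the fibroblast marker mean as a covariate. The brightest probe sets then gave 0.63 for Ddx6, -0.57 for Dcp1a and 0.68 for Dcp2, and none passed.

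The decapping enhancer Edc3 had 190.1, 203 and 182 in KIAA1718 shRNA1 cells and 164, 174 and 154 in luciferase shRNA cells, without overlap, at 0.21 ± 0.11 (SE, adjusted p = 0.325). Edc4, a scaffold that brings Dcp1a and Dcp2 together, differed by -0.04 with an interval of -0.27 to 0.19. Lsm1, a subunit of the ring that binds the 3′ end of deadenylated mRNA, differed by 0.15 with an interval of -0.07 to 0.36.

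**Figure D4:**
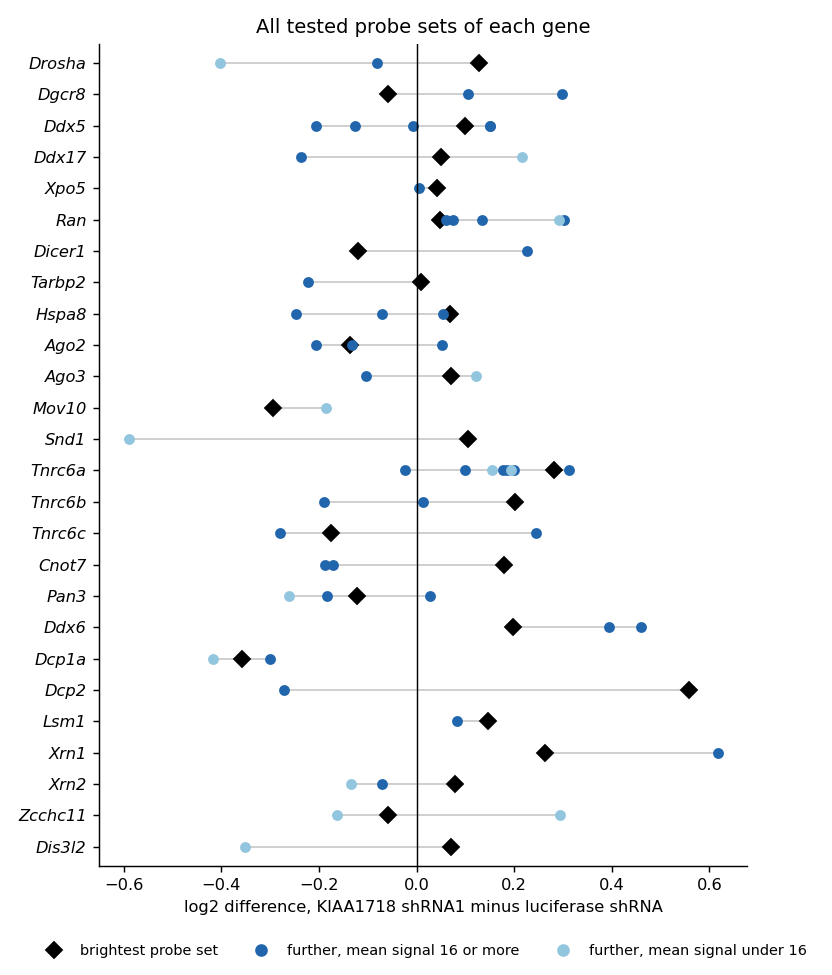
Log2 difference, KIAA1718 shRNA1 minus luciferase shRNA, of every tested probe set of the 26 genes with more than 1; diamonds mark the brightest probe set and paler circles those with a mean signal under 16. In 7 of the 26 genes all tested probe sets lie on one side of 0, among them Ran, Ddx6, Dcp1a and Xrn1, whereas the 2 of Dcp2 lie on opposite sides.

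Xrn1, the cytoplasmic exonuclease that degrades decapped mRNA from its 5′ end, had signals of 60.9, 63.9 and 62.4 in KIAA1718 shRNA1 cells and 49.3, 50.6 and 48.0 in luciferase shRNA cells. The groups were tight and apart, at 0.26 ± 0.12 (SE, adjusted p = 0.246), and leaving out any 1 array gave 0.25 to 0.28. Its other probe set had 43.2, 35.0 and 43.1 in KIAA1718 shRNA1 cells and 20.9, 14.0 and 28.6 in luciferase shRNA cells, a larger difference of 0.62 ± 0.16 (SE) with an adjusted p of 0.0559, and of 0.0217 when blocked on replicate number. With the mean of both probe sets Xrn1 passed, at 0.44 (adjusted p = 0.0403). The nuclear relative Xrn2, which acts in transcription termination, gave 385, 359 and 335 in KIAA1718 shRNA1 cells and 349, 294 and 379 in luciferase shRNA cells, a difference of 0.08 with an interval of -0.17 to 0.33.

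The last pair of genes acts on the tails of small RNAs. Zcchc11 (Tut4 in the current annotation), which adds uridines to the let-7 precursor when Lin28 is bound, averaged 212 ± 7.51 in KIAA1718 shRNA1 cells and 222 ± 11.7 in luciferase shRNA cells (SD, n = 3; log2 difference -0.06, interval -0.28 to 0.16). One dim Zcchc11 probe set went the other way, at 13.2 ± 2.86 in KIAA1718 shRNA1 cells and 7.73 ± 0.654 in luciferase shRNA cells (SD, n = 3; 0.29, adjusted p = 0.254). Dis3l2, the nuclease that degrades the uridylated precursor, differed by 0.07 at its brightest probe set, with means of 32.1 ± 5.15 in KIAA1718 shRNA1 cells and 29.6 ± 2.71 in luciferase shRNA cells (SD, n = 3) and an interval of -0.22 to 0.36.

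Variation within the groups had a median of 0.124 (SD, log2) over the 33 genes and of 0.147 over all genes. It was smallest in Dicer1 at 0.0209 and largest in Ddx6 at 0.325, Dcp2 at 0.286 and Dcp1a at 0.264. KIAA1718 shRNA1 replicate 2 was the extreme array most often, with the lowest signal of the 6 arrays for 9 genes and the highest for 11. The same count was not made over all genes, so it is not known to be particular to the 33. On KIAA1718 shRNA1 replicate 2 the 6 Argonaute genes and partners averaged 6.29 (log2), against 6.46 to 6.50 on the other KIAA1718 shRNA1 arrays and 6.45 to 6.51 on the luciferase shRNA arrays.

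Of 110 other genes of the pathway, chosen as cofactors, further deadenylase, decapping and exosome subunits and piRNA genes, 102 were on the array and 97 tested; 1 was higher and 2 were lower past the threshold, and 94 did not pass. The 3 called are 3.09% of the 97, below the 4.80% of all genes. Blocked on replicate number, 1 was higher and 5 were lower, or 6.19%, against 7.90% of all genes; those added were Zfp36l1 (adjusted p = 0.0562, and 0.0303 when blocked), Cnot3 (0.0863, and 0.0303 when blocked) and Gigyf2. The median of the 97 was 0.03. Cnot6, a catalytic subunit of CCR4-NOT, rose to 427, 470.2 and 499 in KIAA1718 shRNA1 cells, against 323, 345 and 322 in luciferase shRNA cells, a difference of 0.47 ± 0.10 (SE, adjusted p = 0.0214). All 4 of its probe sets lay above 0 without overlap of the groups, though the call held in only 8 of 16 alternatives. Eif4e2, a cap-binding protein that blocks translation initiation, fell to 600.5, 640.1 and 549 in KIAA1718 shRNA1 cells, against 861, 928 and 922 in luciferase shRNA cells (-0.59 ± 0.08, SE, adjusted p = 0.00392), in 13 of 16 alternatives. A second Eif4e2 probe set passed too, at -0.54 (adjusted p = 0.00606). Its remaining probe sets, at -0.36 to -0.07, had overlapping groups and did not pass. Gigyf2, a binding partner of Eif4e2, differed by -0.49 (adjusted p = 0.123, and 0.0438 when blocked on replicate number). That is the brightest of its 3 tested probe sets, and the others are not given here. Gigyf1, in the same list, differed by 0.05 (adjusted p = 0.927). Rnf17, a Tudor domain gene of the germline piRNA pathway, had 114, 87.8 and 97.6 in KIAA1718 shRNA1 cells and 166, 162 and 172 in luciferase shRNA cells (-0.66 ± 0.12, SE, adjusted p = 0.0132), and was called in 11 of 16 alternatives. The further Rnf17 probe sets lay below 0 as well, at -0.32 to -0.14, but their groups overlapped and none passed. Neither Eif4e2 nor Rnf17 was called with the mean of all tested probe sets, whereas Cnot6 was. The summed signal of 7 germ cell markers, of which 4 are also in the piRNA list, was 245 to 286 in KIAA1718 shRNA1 cells and 335 to 384 in luciferase shRNA cells. Of the 6 tested, only Stra8 passed, at -0.95 (adjusted p = 0.00676), and Sycp3 lay above 0 at 0.06. Ddx4, Dazl, Mael and Piwil2 lay at -0.47 to -0.22 without passing, and Tdrd1 was too dim to be tested. The part of these markers in the Rnf17 value was not tested. With the fibroblast marker mean as a covariate none of Cnot6, Eif4e2 and Rnf17 passed, where 75 of all 12741 genes did.

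**Figure D5:**
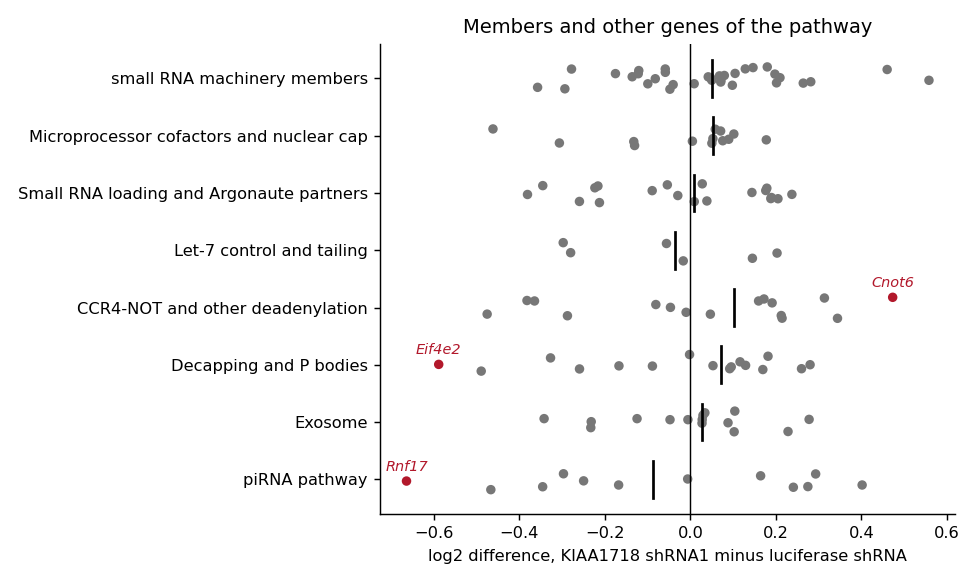
Each point is the log2 difference, KIAA1718 shRNA1 minus luciferase shRNA, of 1 gene, for the 33 small RNA machinery genes in the top row and 97 other genes of the pathway by role; points are spread vertically only to be seen, black lines are row medians, and named red points have a limma adjusted p under 0.05. No red point lies in the top row, and Cnot6, Eif4e2 and Rnf17 are the 3 in the other rows.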

How the data were processed

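Groups and replicate numbers came from the sample titles. The authors deposited 1 linear signal intensity per probe set and array. Per the submitters' processing notes they were made with GCOS, and no version or setting of it is known here. Medians of the deposited arrays ran from 9.59 to 13.3, so scales differed. A pseudocount of 16 was added, log2 taken, and the arrays quantile normalized, so differences understate changes at low signal; signals in the text are these values turned back. The 64 control probe sets and the dimmest 40% of the others were left out of the tests, which kept 27022 probe sets. limma 3.58.1 in R 4.3.3 (lmFit, eBayes with an intensity trend) was run two-sided, with Benjamini-Hochberg adjustment over all tested probe sets and a threshold of 0.05. The step was tested on simulated data. SEs, intervals and p-values of differences are moderated by limma, which draws each variance toward that of probe sets of similar signal. For genes with little spread within groups, such as Dicer1, Ago3 and Xrn1, the SE is therefore wider than their own arrays would give.

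Probe sets with 1 gene symbol (34945) were used, with symbols updated by Entrez number in a RefSeq table of GRCm38.p6; 932 with several and 9160 unnamed ones were not. No build is named with the intensities, so coordinates are given only for the microRNA sequences. The brightest probe sets of 4 genes end in _x_at and of 3 in _s_at, names Affymetrix gives to sets that may bind other transcripts. The genes, lists and tests were chosen with earlier results of these data known. Named by rule were all 33 genes, with signals per array for the 8 of smallest p, the Argonautes, Drosha, Dgcr8 and Dicer1; further probe sets that passed, or had the opposite sign at an unadjusted p under 0.05; and pathway genes past the threshold. Other per-array values and probe sets, the stem cell and germ cell markers named singly, and Gigyf1, Gigyf2, Zfp36l1 and Cnot3, were chosen after their values were seen.

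After subtracting group means, arrays of equal number correlated at 0.204, 0.125 and 0.132 for numbers 1, 2 and 3, and at -0.150 to 0.0234 for unequal numbers. All 3 were over 0.1, so the numbers were taken to pair the arrays; no label says what they mark. The main fit has no block, and the blocked value or count is given where it changes a call among the genes and lists reported.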

Additional observations from a re-analysis of the deposited data

How the results depend on the processing

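The processing was varied in 16 ways, 10 settings and 6 fits without 1 array; the fibroblast marker covariate was chosen after seeing the data. Of the 33 small RNA machinery genes, 1 passed on unnormalized values, 1 with the mean of all probe sets per gene and 1 with replicate number as a block, and 0 to 1 without 1 array: Dcp2 in each case except Xrn1 with the mean of all probe sets. The other 12 alternatives called none. Of 527 values of single genes under the alternatives, 4 passed, all on the side of the main value, and 31 had the other sign with no call in either setting. The median of the 33 genes was 0.17 on unnormalized values, against 0.11 for all genes, and -0.040 with the mean of all probe sets; without 1 array it ran from 0.03 to 0.06. Over all genes, 612 changed in the main setting, 364 on unnormalized values, 197 with no filter on low signal, 394 without the intensity trend, 1006 with the replicate block, 75 with the fibroblast covariate and 169 to 526 without 1 array. Higher genes made up 54.9% of those in the main setting and 81.6% on unnormalized values. Of the 97 other pathway genes, 3 changed in the main setting, 0 on unnormalized values, 5 with the mean of all probe sets, 6 with the replicate block, 0 with the fibroblast covariate and 1 to 4 without 1 array. The block changed the call of no small RNA machinery gene other than Dcp2 at its brightest probe set. The cause of these shifts was not tested. With 3 arrays per group, differences well under a doubling can be missed, and dim genes such as Ago4 more so.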
